A study of Mus musculus with 9 samples.

Results

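RIG-I-bound mRNA was compared between B16F10 mouse melanoma cells carrying 1 of 2 short hairpin RNAs (shRNAs) against the same gene, Osgep. The samples were chosen by their labels: replicates 1, 2 and 3 of shOSGEP#2 were set against replicates 1, 2 and 3 of shOSGEP#1, which makes 6 of the 9 samples of the series. The 3 samples with the control hairpin shCtr did not enter the comparison. In every group the cells stably expressed FLAG-tagged RIG-I, received their hairpin by lentivirus and were selected with puromycin. Per the study's methods, the 3 samples of a group came from independent transductions. RIG-I was pulled down from cell lysate through its FLAG tag, the RNA that came with it was extracted, and ribosomal RNA-depleted, stranded libraries of total RNA were sequenced from both ends. None of the 9 samples is an input library, so more binding to RIG-I and more of the mRNA in the cell cannot be told apart in any difference given here. As in any bulk sample, fewer cells of a type and less RNA per cell cannot be told apart either.

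Osgep encodes the catalytic subunit of the KEOPS complex, which adds the threonylcarbamoyl group of t6A to tRNAs that read codons beginning with A. RIG-I, encoded by Ddx58, is a cytoplasmic sensor that binds double-stranded RNA and RNA with a 5′ triphosphate and signals through MAVS to interferon genes. Hairpins against the same gene share their intended target but not their sequence, so setting them against each other shows which mRNAs differ between the hairpins and not what follows from less Osgep.

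Between the hairpins, the RIG-I-bound mRNAs that passed the test included genes of pigment cells, stress responses, lipid synthesis, extracellular matrix and signalling. Of the mRNAs of the melanin and melanosome list, 6 of 19 were lower with shOSGEP#2 and 0 were higher, and of the cholesterol and fatty acid list 8 of 35 were lower and 1 was higher. In the other direction, 6 of 30 mRNAs of the integrated stress response and ATF4 list were higher and 0 lower, 6 of 43 of the matrix list were higher and 1 lower, and 3 of 17 of the MHC class I list were higher and 0 lower. Ribosomal proteins, with 0 of 82 called, and DNA replication, with 0 of 42, were among the lists with no call. These counts come from edgeR on the 5 deep libraries, where 5.97% of all genes tested were called. With the shallow shOSGEP#2 library added edgeR called 0 genes (555 at an unadjusted p under 0.05), DESeq2 74 and limma voom with sample quality weights 780.

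The libraries differed widely in depth. Those labelled shOSGEP#1 held 34551436, 50224299 and 30697653 counts in replicates 1, 2 and 3, and those labelled shOSGEP#2 held 25460689, 568995 and 14914731. Replicate 2 of shOSGEP#2 thus stood far below the rest, and it is called the shallow library here. It detected 4196 genes, whereas drawing 568995 counts from each of the other 5 libraries would have left between 11177 and 11303 genes detected. Its 10 most abundant genes took 13.8% of its counts (95% Wilson interval 13.75 to 13.93), against 5.10 to 6.26% in the other 5 libraries. Of 8297 genes with at least 10 counts to be found there from their mean level in the other shOSGEP#2 libraries, 4427 (53.4%) had 0 counts, and of 1298 genes with at least 100 to be found, 242 (18.6%) had 0. Thus both the depth of this library and the number of different genes in it were low. In CPM, counts per 1000000 of the library total, the limit that 0 counts allow (3 counts) was 5.27 in the shallow library and 0.0597 to 0.201 in the other 5, and such intervals and limits cover counting error only. Results are given below with the shallow library (6 libraries, 3 against 3) and without it (5 libraries, 3 shOSGEP#1 against 2 shOSGEP#2).

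Osgep, the target of both hairpins, was at 3.76, 1.15 and 1.53 CPM in shOSGEP#1 replicates 1, 2 and 3 and at 0.0786, 0 and 2.88 CPM in shOSGEP#2. In the shCtr libraries it was at 19.1, 19.9 and 15.5 CPM, above each of the 6 hairpin libraries. The hairpin groups overlapped: replicate 3 of shOSGEP#2 lay above replicates 2 and 3 of shOSGEP#1, and the 0 of the shallow library lies under its limit of 5.27 CPM. The log2 fold change (shOSGEP#2 over shOSGEP#1) was −0.65 ± 1.22 (SE; 3 against 2; adjusted p = 0.752) without the shallow library and −0.93 with it, and voom with quality weights gave −2.23 without it and −1.78 with it. Its sign turned to 0.02 without shOSGEP#1 replicate 1 and to 0.33 without shOSGEP#2 replicate 1, and it was −4.74 without shOSGEP#2 replicate 3. Thus no order of the hairpins by residual Osgep was detectable in these libraries.

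The hairpins bind different places of the Osgep mRNA. The target listed for shOSGEP#1 was found whole in 4 of 8 annotated Osgep transcripts, after the stop codon in the coding ones, and its middle 21 bases, shown because they fix where the hairpin binds, matched Osgep and no other gene.
shOSGEP#1: ccaacatgacgccacaataaa
The target listed for shOSGEP#2 lies within the coding sequence, was found in 7 of the 8 transcripts, and also matched 1 annotated copy of Osgep outside the gene. These 21 bases are the listed 41 bases less 10 at each end, and not necessarily the exact processed guide.

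Ddx58, the mRNA of RIG-I itself, was at 232, 216 and 328 CPM in shOSGEP#1 and at 402, 0 and 429 CPM in shOSGEP#2. The cells also carried the FLAG-tagged RIG-I construct, and whether part of these counts came from it was not tested. Both deep shOSGEP#2 libraries lay above all 3 shOSGEP#1 libraries, while the shallow one had 0 counts where 236 were to be found from the other shOSGEP#2 libraries. The log2 fold change was 0.61 ± 0.22 (SE) without the shallow library, which missed the threshold (adjusted p = 0.0944), and 0.03 with it (adjusted p = 0.999), where voom with quality weights gave 0.75.

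Without the shallow library, edgeR's quasi-likelihood test called 737 of 12344 genes at an adjusted p (Benjamini–Hochberg) under 0.01, or 5.97% of the genes tested. Of these, 460 (3.73%) were higher and 277 (2.24%) lower in shOSGEP#2. The median absolute log2 fold change was 1.61 over the higher genes and 1.49 over the lower ones, beside 0.46 over all genes tested, and the median signed value over all genes was −0.03. In every called gene the deep shOSGEP#2 values did not overlap those of shOSGEP#1, which also held for 50.6% of all genes tested.

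With all 6 libraries the same edgeR test called 0 of 11885 genes, or 0%. At an unadjusted p under 0.05 it gave 555 genes, DESeq2 called 74 (38 higher and 36 lower) and limma voom with sample quality weights called 780 (517 higher and 263 lower). Of the 780, 607 were among the 737, all with the same sign, and of the 74, 56 were. The common dispersion, the spread between replicates that edgeR estimates, was 0.0904 without the shallow library and 0.719 with it. The median log2 fold change over all genes moved from −0.03 to −0.38 when the shallow library entered.

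The 737 calls also rest on few libraries. Leaving out shOSGEP#1 replicate 1, 2 or 3 left 427, 386 or 333 calls, leaving out shOSGEP#2 replicate 1 left 127, and leaving out shOSGEP#2 replicate 3 left 16. In the last pair of refits a lone shOSGEP#2 library is assumed to vary like the others. Of the 100 called genes named here by rule, 31, 28 and 46 lost their call without shOSGEP#1 replicate 1, 2 and 3, 79 lost it without shOSGEP#2 replicate 1 and 94 without shOSGEP#2 replicate 3. In each of the 5 refits 13 genes were called, 12 higher and 1 lower. They are Ccn4, Cyp26b1, Map1a and Cdsn, named by rule, and Dmpk, Sorbs2, Masp1, Aldh1l2, Ehd2, Pde5a, Fndc3b, Cyb5r1 and Ptgds, named after their values were seen. Every other gene named as called below lost its call in at least 1 of these refits.

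Among called genes with a mean of at least 5 CPM over the 5 deep libraries, Cyp26b1 had the largest positive log2 fold change. It encodes an enzyme that breaks down retinoic acid and was at 2.81, 2.11 and 3.29 CPM in shOSGEP#1 and at 117, 160 and 82.4 CPM in shOSGEP#2, a log2 fold change of 5.13 ± 0.29 (SE; adjusted p = 8.77e-05) without the shallow library and 5.13 with it (adjusted p = 0.488). All 3 shOSGEP#2 libraries, the shallow one included, lay far above every shOSGEP#1 library. Ccn4, a secreted matricellular protein, stood at 19.9, 23.1 and 17.0 CPM in shOSGEP#1 and at 434, 401 and 367 CPM in shOSGEP#2 (log2 fold change 4.25 ± 0.21, adjusted p = 4.50e-05). Here too the groups were apart in all 6 libraries, and the shallow library held 228 counts of Ccn4 where 228 were to be found. Map1a, which encodes a microtubule-associated protein, was at 6.17, 4.30 and 5.99 CPM against 152, 0 and 162 CPM, and Cdsn, a desmosomal adhesion protein, at 3.56, 6.35 and 4.43 against 202, 0 and 75.6 CPM. For both, the deep shOSGEP#2 libraries were high and the shallow one had 0 counts, where 89.4 of Map1a and 78.9 of Cdsn were to be found.

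The other 6 of the 10 higher genes with the largest values above that mean were at 1.82 CPM or less in every shOSGEP#1 library. Epha1, an ephrin receptor tyrosine kinase, was at 0.145, 0.796 and 0.521 CPM in shOSGEP#1 and at 12.1, 0 and 23.1 CPM in shOSGEP#2 (log2 fold change 5.05 ± 0.64, adjusted p = 0.00181). Notch3, a NOTCH receptor, was at 0.376, 0.637 and 0.912 CPM against 12.2, 0 and 12.1 CPM (4.17 ± 0.53, adjusted p = 0.00181). That the deep libraries of the hairpins do not overlap is part of how these genes were chosen. Ogn, a small leucine-rich proteoglycan (5.02), Gstt1, a glutathione transferase (4.94), Pkhd1, the ciliary membrane protein fibrocystin (4.35), and Reep6, a membrane protein of the endoplasmic reticulum (4.15), had log2 fold changes of like size. The shallow library held 0 counts of 8 of these 10 genes, where 6.91 to 89.4 were to be found.

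Among lower genes above the same mean of 5 CPM, Plekhb1, which encodes a pleckstrin homology domain protein, was at 17.4, 17.5 and 27.0 CPM in shOSGEP#1 and at 0.668, 0 and 0 CPM in shOSGEP#2, with a log2 fold change of −5.78 ± 0.77 (adjusted p = 0.00220). The 0 of the shallow library allows up to 5.27 CPM and that of replicate 3 up to 0.201 CPM, so the size of the value rests on the few counts of replicate 1, and without that library the fit gave −12.41, against a group at 0. Rgs14, a regulator of G protein signalling, was at 9.23, 6.27 and 11.9 CPM against 0.511, 0 and 0 CPM (−5.01 ± 0.92, and −11.23 without shOSGEP#2 replicate 1, again against a group at 0). Rab17, a small GTPase of membrane traffic, was at 33.5, 31.6 and 20.1 CPM against 1.57, 0 and 0.603 CPM (−4.69 ± 0.47). Among abundant mRNAs, Car6, a secreted carbonic anhydrase, was at 317, 464 and 820 CPM in shOSGEP#1 and at 15.0, 0 and 35.7 CPM in shOSGEP#2 (−4.49 ± 0.53). Itga4, the integrin alpha 4 subunit, was at 360, 584 and 939 CPM against 42.6, 61.5 and 46.9 CPM, a log2 fold change of −3.88 ± 0.41 (adjusted p = 0.00117) without the shallow library and −3.94 with it. It was the 1 gene of these 10 lower ones with counts in the shallow library, and all 6 libraries separated by hairpin.

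Dhrs3, a reductase of retinaldehyde, was at 142, 187 and 156 CPM in shOSGEP#1 and at 4.44, 0 and 25.2 CPM in shOSGEP#2 (−3.56 ± 0.60, adjusted p = 0.00547). Rarb, the retinoic acid receptor beta, was at 32.8, 35.4 and 18.1 CPM against 1.93, 0 and 4.49 CPM (−3.27 ± 0.45, adjusted p = 0.00259). Both were low in the deep shOSGEP#2 libraries. The shallow one held 0 counts, where 8.44 of Dhrs3 and 1.83 of Rarb were to be found from the other shOSGEP#2 libraries. Its limit of 5.27 CPM lies under every shOSGEP#1 value of both genes. However, 18.6% of genes with at least 100 counts to be found there also read 0, so nothing is drawn from these zeros. Cyp2j6, a cytochrome P450 (−3.25), Hpgds, a prostaglandin D synthase (−3.73), and Uroc1, the urocanate hydratase of histidine breakdown (−4.31), complete the 10. Ptgds, the lipocalin-type prostaglandin D synthase, was the 1 lower gene called in every refit, at 444, 490 and 413 CPM in shOSGEP#1 and at 37.5, 0 and 63.7 CPM in shOSGEP#2 (−3.23 ± 0.26, adjusted p = 0.000687).

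**Figure D1:**
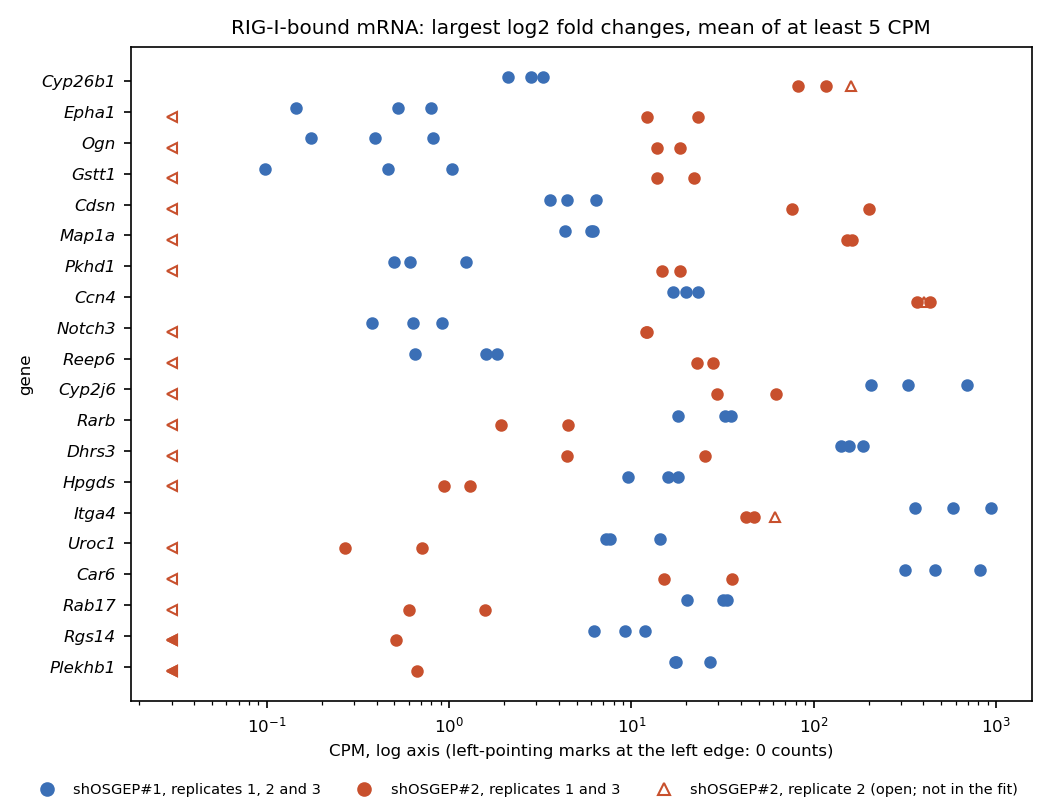
CPM on a log axis of, among called genes with a mean of at least 5 CPM over the 5 deep libraries, the 10 with the largest positive and the 10 with the largest negative log2 fold change without the shallow library, 1 mark per library (blue, shOSGEP#1; red, shOSGEP#2; open, the shallow library; left-pointing marks, 0 counts). The genes were chosen among those whose deep libraries do not overlap between hairpins, so that separation is part of the choice. The open marks lie at 0 counts in 8 of the 10 higher and 9 of the 10 lower genes.

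Among the genes called in every refit, Dmpk, a serine/threonine kinase of muscle and other cells, was at 9.46, 10.7 and 9.77 CPM in shOSGEP#1 and at 134, 174 and 124 CPM in shOSGEP#2. Sorbs2, an adaptor of the actin cytoskeleton, was at 4.37, 6.13 and 4.56 CPM against 83.1, 190 and 66.6 CPM, and Pde5a, the phosphodiesterase that degrades cyclic GMP, at 18.4, 20.0 and 17.0 CPM against 135, 473 and 107 CPM. In these 3 genes all 3 shOSGEP#2 libraries, the shallow one included, were above all shOSGEP#1 libraries. Masp1, a serine protease of the lectin complement pathway, was at 15.2, 14.7 and 18.4 CPM against 127, 28.1 and 132 CPM, and Aldh1l2, the mitochondrial formyltetrahydrofolate dehydrogenase, at 71.5, 57.3 and 48.8 CPM against 604, 0 and 393 CPM. In CPM Masp1 was thus higher in all shOSGEP#2 libraries but least so in the shallow one, and Aldh1l2 had no counts there. After TMM scaling, which the fits use, the shallow library lay near the shOSGEP#1 mean of Masp1, at a log2 ratio of 0.10. Ehd2, which encodes an ATPase of caveolae, Fndc3b and Cyb5r1 had log2 fold changes of 2.66, 2.15 and 2.09.

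The shallow library did not enter the 737 calls, so its values can be set beside them, as a description. The same shOSGEP#1 libraries are the reference of both, so part of any agreement is built in and is no independent support. Here the counts to be found were taken, after TMM scaling, from the higher of the level in the other shOSGEP#2 libraries and that in shOSGEP#1, so that more genes count than above. Of the 449 higher genes with at least 10, 185 (41.2%) lay above the shOSGEP#1 mean, against 19.7% of the 9500 such genes among all tested, and 223 of the 449 had 0 counts. Of the 263 lower genes 9 (3.42%) lay above it, and 179 had 0 counts, which counts as lower whatever the gene. Among all such genes with a higher mean in shOSGEP#2 replicates 1 and 3 than in shOSGEP#1 the share was 27.2%, and 12.8% among those with a lower mean. On library totals it was 46.7% of the higher, 5.79% of the lower and 27.5% of all such genes tested. Among genes with at least 1 count in the shallow library, an alternative chosen after seeing the data, 185 of 226 higher genes (81.9%) and 9 of 84 lower genes (10.7%) lay above the shOSGEP#1 mean, against 46.3% of all such genes tested. Asking for a count there leaves out the genes that read 0 and so raises each of these shares, so nothing about direction is drawn from them.

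**Figure D2:**
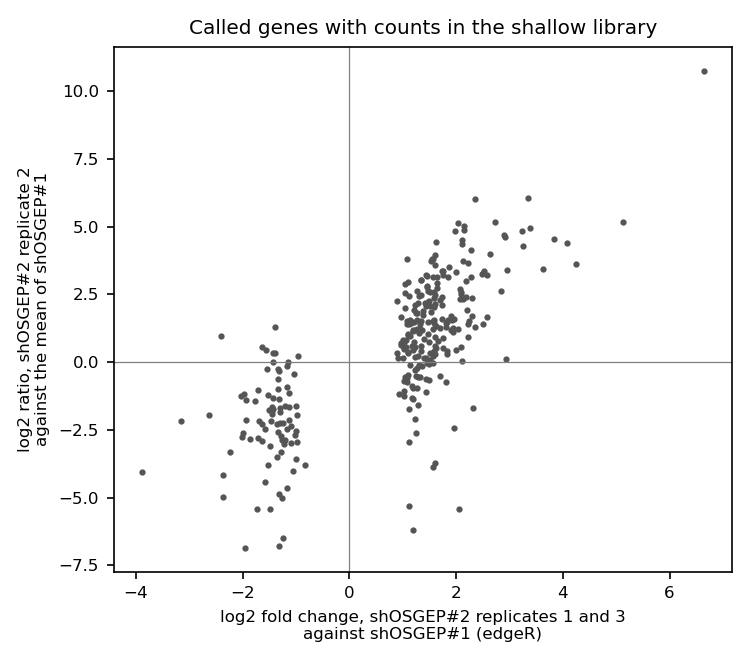
Each point is 1 of the 311 called genes with counts in the shallow library. Both axes use the same shOSGEP#1 libraries as their reference and are not independent. The horizontal axis is the log2 fold change of shOSGEP#2 replicates 1 and 3 against shOSGEP#1, and the vertical axis the log2 ratio of the shallow library to the shOSGEP#1 mean after TMM scaling: 186 points lie in the upper right, 75 in the lower left, 41 in the lower right and 9 in the upper left.

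Of the melanin and melanosome list, 6 of 19 tested genes were lower and 0 higher and 13 did not pass the test, with a median log2 fold change of −0.83 beside −0.03 over all genes, and 18 of the 19 values were negative. The share called was 31.6%, beside 5.97% of all genes. Dct, a melanin-synthesis enzyme, was at 1621, 2060 and 1806 CPM in shOSGEP#1 and at 363, 165 and 380 CPM in shOSGEP#2 (log2 fold change −2.37 ± 0.20, adjusted p = 0.000687). Gpnmb, a melanosomal glycoprotein, was at 4170, 5997 and 5546 CPM against 1100, 847 and 1236 CPM (−2.24 ± 0.22), and Slc45a2, a melanosomal transporter, at 366, 528 and 390 against 101, 112.5 and 124 CPM (−1.996 ± 0.23). These 3 mRNAs were low in all 3 shOSGEP#2 libraries. Rab27a, a GTPase of melanosome transport, was at 219, 184 and 175 CPM against 60.4, 0 and 57.7 CPM (−1.77 ± 0.19). Mlana, a melanosomal membrane protein, was at 603, 573 and 597 CPM against 223, 278 and 230 CPM (−1.45 ± 0.18), and Pmel, which forms melanosome fibrils, at 1092, 1357 and 929 CPM against 213, 15.8 and 401 CPM (−1.95 ± 0.29). Tyrp1, at 1666, 2288 and 2061 CPM against 1227, 116 and 1615 CPM, was not called (adjusted p = 0.0978), nor was Tyr, the rate-limiting enzyme of melanin synthesis, at 30.4, 26.1 and 27.3 against 5.93, 0 and 19.8 CPM (adjusted p = 0.0880).

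Of the melanocyte lineage regulators 2 of 13 (15.4%, beside 5.97% of all genes) were lower and 0 higher, and 6 of the 13 values were positive (median −0.38). Mitf, the master transcription factor of melanocytes, was at 401, 400 and 448 CPM in shOSGEP#1 and at 168, 0 and 216 CPM in shOSGEP#2 (−1.19 ± 0.19, adjusted p = 0.00459). Sox10, a neural crest transcription factor, was at 875, 862 and 972 CPM against 417, 1090 and 514 CPM (−1.03 ± 0.19, adjusted p = 0.00733). In CPM the shallow library thus lay above all shOSGEP#1 libraries for Sox10 and the deep shOSGEP#2 libraries below them. After TMM scaling the shallow library lay below the shOSGEP#1 mean of Sox10, at a log2 ratio of −0.43, so its side depends on the scaling. In the neural crest and dedifferentiated melanoma list 1 of 12 was called (8.33%, beside 5.97% of all genes). It was Axl, a receptor tyrosine kinase, which was higher at 17.0, 24.7 and 16.5 CPM against 73.8, 153 and 57.5 CPM (1.69 ± 0.25).

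The melanoma label was checked against markers. All 7 melanoma and melanocyte markers (Mitf, Sox10, Pmel, Mlana, Dct, Tyrp1 and Tyr) were detected in each deep library, and 5 of the 7 were lower with shOSGEP#2. Several of these markers also stand in the melanin and lineage lists. Of the keratinocyte markers Krt5, Krt1 and Krt10 were at 0 in all 6 libraries and Krt14 reached 0.116 CPM at most, and no T cell marker was abundant enough to be tested. Of the fibroblast markers 3 were tested and none was called: Col1a1 was at 1.62, 0.976 and 1.79 CPM in shOSGEP#1 and at 4.99, 68.5 and 14.7 CPM in shOSGEP#2, while Lum was at 0 in all 6 and Dcn at 0.0996 CPM or less. The endothelial and macrophage lists had 2 tested genes each and 0 called, with Cd68 at 1.94 CPM at most. The summed level of the fibroblast list was 3.21, 2.77 and 5.18 CPM in shOSGEP#1 and 9.58, 68.5 and 21.0 CPM in shOSGEP#2, with Col1a1 its most abundant gene in the shallow library, and its part in the matrix genes below was not tested.

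Of 35 tested genes of cholesterol and fatty acid synthesis and their control, 8 were lower, 1 was higher and 26 did not pass the test, with a median of −0.84 and 27 negative values. Scd2, a fatty acid desaturase, was at 1532, 2355 and 1611 CPM in shOSGEP#1 and at 450, 0 and 574 CPM in shOSGEP#2 (−1.91 ± 0.25, adjusted p = 0.00194). Nsdhl and Msmo1, which remove methyl groups from sterol precursors, were at 59.2, 66.5 and 44.0 against 17.2, 0 and 11.5 CPM, and at 70.2, 124 and 109 against 23.6, 0 and 30.9 CPM. In all 3 genes the deep shOSGEP#2 libraries were below all shOSGEP#1 libraries, and the shallow library held 0 counts of each. Abca1, the exporter of cellular cholesterol, went the other way, at 12.0, 13.2 and 21.1 CPM against 51.8, 0 and 74.2 CPM (1.95 ± 0.30, adjusted p = 0.00349). Of 43 lysosomal genes 4 were lower and 1 higher (median −0.30): the proteases Ctsd (−1.52) and Ctsb (−1.72) and the proton pump subunit Tcirg1 (−1.52) fell below shOSGEP#1, and the pump subunit Atp6v1e1 (1.50) lay above it. The shares called were 25.7% of the cholesterol and 11.6% of the lysosomal list, beside 5.97% of all genes.

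In the integrated stress response and ATF4 list 6 of 30 tested genes were higher and 0 lower, 24 did not pass the test, the median was 0.70, and 23 values were positive. The share called was 20.0%, beside 5.97% of all genes. Trib3, a pseudokinase induced by stress, was at 130, 124 and 75.2 CPM in shOSGEP#1 and at 580, 467 and 720 CPM in shOSGEP#2 (2.50 ± 0.25, adjusted p = 0.00105). Psph, the last enzyme of serine synthesis, was at 28.0, 25.5 and 16.1 CPM against 138, 346 and 154 CPM (2.58 ± 0.24). For both genes all 3 shOSGEP#2 libraries lay above all shOSGEP#1 libraries. Chac1, which degrades glutathione, was at 65.1, 68.8 and 55.0 CPM against 241, 0 and 295 CPM (2.02 ± 0.18), and Sesn2, a stress-induced inhibitor of mTORC1 signalling, at 70.3, 57.8 and 55.1 against 206, 0 and 215 CPM (1.72 ± 0.18).

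Of 30 translation initiation and elongation factors 1 was higher and 2 were lower (10.0% called, beside 5.97% of all genes, median −0.32). The higher one was Eif4ebp1, which holds back the cap-binding factor of translation (77.3, 63.1 and 48.0 CPM against 320, 0 and 289 CPM, 2.21 ± 0.22). The elongation factor mRNAs Eef1b2 and Eef1a1 were the lower ones, and Eef1a1 stood at 12180, 10970 and 11930 CPM in shOSGEP#1 and at 6844, 1362 and 7015 CPM in shOSGEP#2 (−0.82 ± 0.15, adjusted p = 0.00809). Of 37 aminoacyl-tRNA synthetases 1 was called, Dars, which charges tRNA with aspartate (65.0, 60.3 and 64.9 CPM against 160, 0 and 200 CPM, 1.43 ± 0.17). The unfolded protein response list had 1 higher gene of 22, the sensor Atf6 (1.06 ± 0.18), and the chaperone list 1 lower gene of 24, Bag3, a co-chaperone of HSP70 (−1.62 ± 0.23). In the NRF2 and glutathione list 2 of 32 were lower, Osgin1 (−2.08) and the peroxiredoxin Prdx2 (−1.01). The shares called in the synthetase (2.70%), unfolded protein response (4.55%), chaperone (4.17%) and NRF2 (6.25%) lists are near or under the 5.97% of all genes.

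In the RIG-I-like receptor list 1 of 20 tested genes (5.00%, near the 5.97% of all genes) was called, Dhx58, the receptor LGP2 that lacks the signalling domain of RIG-I. It was at 10.0, 11.0 and 11.4 CPM in shOSGEP#1 and at 52.9, 0 and 35.5 CPM in shOSGEP#2 (1.97 ± 0.25, adjusted p = 0.00183). Ifih1, which encodes MDA5, was at 44.7, 46.4 and 60.6 CPM against 53.9, 135 and 78.9 CPM, and Mavs, the adaptor, at 62.4, 66.4 and 56.6 against 60.4, 0 and 47.2 CPM, and neither was called. Among 46 interferon-stimulated genes 1 was higher and 1 lower (4.35%, likewise near the share of all genes), with a median of −0.01 that turned to 0.06 on library totals. They were Mx1, an antiviral GTPase at 2.55, 1.99 and 1.37 CPM against 8.48, 0 and 15.9 CPM (2.55 ± 0.47), and Irgm1, an immunity-related GTPase at 124, 113 and 148 against 53.3, 0 and 62.8 CPM (−1.22 ± 0.20). Over the interferon-stimulated list 23 values were positive and 23 negative.

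MHC class I mRNAs were higher in 3 of 17 tested genes (17.65%, beside 5.97% of all genes) and lower in 0, with a median of 0.97. The summed level of the list was 1973, 2651 and 3019 CPM in shOSGEP#1 and 2055, 3455 and 2281 CPM in shOSGEP#2, so the sums of the deep libraries overlapped, and the called genes are minor parts of it. Nlrc5, the transcriptional activator of MHC class I genes, was at 7.50, 8.36 and 9.09 CPM in shOSGEP#1 and at 30.3, 0 and 30.1 CPM in shOSGEP#2 (1.79 ± 0.24, adjusted p = 0.00224). H2-K1, a class I heavy chain, was at 6.28, 7.15 and 9.77 CPM against 27.9, 100.2 and 46.1 CPM (2.18 ± 0.30), and H2-Q4, a related chain, at 9.67, 10.7 and 15.5 against 34.8, 22.9 and 39.4 CPM (1.56 ± 0.27). In CPM all 3 shOSGEP#2 libraries were above all shOSGEP#1 libraries for both heavy chains. After TMM scaling the log2 ratio of the shallow library to the shOSGEP#1 mean was 2.99 for H2-K1 and only 0.23 for H2-Q4. These genes share near-identical sequence with other class I genes and the counts of each are uncertain. Of 23 chemokines and cytokines 2 were higher (8.70%, beside 5.97% of all genes), though the list median was −0.15 and 14 values were negative. They were the macrophage growth factor Csf1 (23.6, 30.8 and 30.0 CPM against 113, 134 and 99.5 CPM, 1.85 ± 0.20) and the angiogenic factor Vegfa (47.1, 43.9 and 44.2 CPM against 118, 453 and 145 CPM, 1.47 ± 0.17). Both were above shOSGEP#1 in all 3 shOSGEP#2 libraries. The NF-kappaB list had 1 higher gene of 15 (6.67%, near the 5.97% of all genes), the subunit Relb (1.12 ± 0.20).

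Of 43 tested genes of collagens, laminins, integrins and matrix 6 were higher, 1, Itga4, was lower and 36 did not pass the test, with a median of 0.51. The share called was 16.3%, and 28.6% of the glypicans and syndecans below, beside 5.97% of all genes. Timp3, an inhibitor of metalloproteinases, was at 61.4, 103 and 106 CPM in shOSGEP#1 and at 596, 360 and 372 CPM in shOSGEP#2 (2.36 ± 0.30, adjusted p = 0.00174). Col5a1, a fibrillar collagen chain, was at 14.0, 17.2 and 20.0 CPM against 60.2, 1821 and 126 CPM (2.36 ± 0.31), and Loxl4, a collagen cross-linking enzyme, at 1.48, 2.09 and 1.24 against 11.6, 0 and 17.0 CPM (3.07 ± 0.42). Timp3 and Col5a1 were above shOSGEP#1 in all 3 shOSGEP#2 libraries, with Col5a1 in the shallow one far above the others. Among glypicans and syndecans, cell-surface heparan sulfate proteoglycans, 2 of 7 were higher (median 1.25): Gpc1, at 99.2, 127 and 73.4 CPM against 253, 768 and 340 CPM (1.50 ± 0.24), and Sdc4, at 65.7, 88.3 and 61.2 against 166, 80.8 and 192 CPM (1.25 ± 0.20). In CPM, Sdc4 in the shallow library lay within the range of shOSGEP#1, and Gpc1 above it. After TMM scaling the log2 ratio to the shOSGEP#1 mean there was 2.24 for Gpc1 and −0.53 for Sdc4, opposite to the call of Sdc4.

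In the list of YAP, SRF and TGF-beta targets 4 of 24 were higher and 2 lower (median 0.60). The share called was 25.0%, beside 5.97% of all genes. Zyx, a focal adhesion protein, was at 272, 257 and 305 CPM in shOSGEP#1 and at 913, 1652 and 762 CPM in shOSGEP#2 (1.52 ± 0.19, adjusted p = 0.00169). Filip1l, at 119, 110 and 189 against 39.2, 86.1 and 37.1 CPM (−1.94 ± 0.28), and Skil, a repressor of SMAD signalling, at 64.9, 64.3 and 96.7 against 23.2, 0 and 23.3 CPM (−1.77 ± 0.25), were the lower members. Zyx was thus above and Filip1l below shOSGEP#1 in all 3 shOSGEP#2 libraries. Of 14 cytoplasmic actins, tubulins and intermediate filaments 0 were called by edgeR (median 0.23).

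Among cadherins, ephrins, semaphorins and axon guidance genes 4 of 51 were higher and 2 lower. Epha3, an ephrin receptor (18.9, 28.2 and 22.5 CPM against 121, 0 and 122 CPM, 2.32 ± 0.21), and Sema6a, a transmembrane semaphorin (22.2, 22.7 and 15.2 against 109, 86.1 and 88.1 CPM, 2.23 ± 0.24), were higher. Nrp2 (−1.46) and Plxnd1 (−1.48), receptors for semaphorins, were lower, and both hold counts below every shOSGEP#1 library in all 3 shOSGEP#2 libraries. Growth factor receptors and ligands gave 4 higher genes of 35, among them Fgfr3 (2.49, 3.29 and 2.15 CPM against 20.2, 123 and 32.6 CPM, 3.24 ± 0.33) and the BMP receptor Bmpr2 (119, 144 and 155 against 346, 341 and 396 CPM, 1.34 ± 0.19). Both receptors were above shOSGEP#1 in every shOSGEP#2 library. The WNT list had 3 higher of 23, the receptors Fzd4 (2.08), Fzd2 (1.82) and Kremen1 (1.33), and the NOTCH list 3 higher of 13, Notch3, the glycosyltransferase Rfng (1.99) and the coactivator Maml1 (1.03). Of 8 hedgehog genes 1 was higher, the co-receptor Cdon (1.67), and 1 lower, the transcription factor Gli3 (−1.35). Axl and Vegfa stand in several of these lists and count in each. The shares called were 11.8% of the guidance, 11.4% of the growth factor and 13.0% of the WNT list. They were 23.1% of the NOTCH and 25.0% of the hedgehog list, beside 5.97% of all genes.

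Among G1 cyclins, kinases and inhibitors 4 of 19 were higher and 0 lower (median 0.50; 21.1% called, beside 5.97% of all genes). They were the kinase inhibitor Cdkn2c (26.8, 26.4 and 18.9 CPM against 62.5, 158 and 89.2 CPM, 1.58 ± 0.24), the pocket protein Rb1 (1.11), the kinase Cdk6 (1.02) and the cyclin Ccnd2, at 3216, 3378 and 2113 CPM in shOSGEP#1 and 7094, 2431 and 6787 CPM in shOSGEP#2 (1.19 ± 0.21). In CPM, Ccnd2 in the shallow library lay within the range of shOSGEP#1, and Cdkn2c above it. After TMM scaling their log2 ratios to the shOSGEP#1 mean there were −0.96 and 2.02, so Ccnd2 then lay below that mean, opposite to the call. In edgeR, 0 of 42 DNA replication genes, 0 of 36 mitosis genes and 0 of 25 replication-dependent histones were called. Of the replication genes 38 had a negative log2 fold change (median −0.46), but the list medians of the shOSGEP#1 libraries themselves ran from −0.49 to 0.31 about their mean, and those of the deep shOSGEP#2 libraries were −0.26 and −0.41. The p53 list had 5 higher genes of 31 with a median of 0.09, among them Gadd45a, a growth arrest protein (14.3, 11.2 and 17.3 CPM against 101, 0 and 85.8 CPM, 2.64 ± 0.24), and Rrm2b, a ribonucleotide reductase subunit (1.11). Apoptosis regulators gave 1 higher, Diablo (1.51), and 2 lower of 25, Apaf1 (−1.13) and Cflar (−1.09). The shares called were 16.1% of the p53 and 12.0% of the apoptosis list.

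Glycolysis and hypoxia targets were higher in 4 of 36 genes and lower in 0, with a median of 0.03. The share called was 11.1%, beside 5.97% of all genes. In the immediate early list below it was 13.6%, and in the KEOPS and t6A list 14.3%. Hk2, which phosphorylates glucose, was at 85.5, 71.9 and 60.6 CPM in shOSGEP#1 and at 221, 204 and 262 CPM in shOSGEP#2 (1.66 ± 0.19, adjusted p = 0.00137), above in all 3 libraries. Eno2, an enolase (2.67), Egln3, an oxygen sensor (2.25), and Vegfa were the others. Immediate early genes gave 3 higher of 22 (median 0.69): Ier5 (11.1, 9.54 and 10.6 CPM against 26.8, 302 and 80.6 CPM, 2.28 ± 0.39, and 1.32 without shOSGEP#2 replicate 3), Ier3 (1.19) and the AP-1 subunit Fosl2 (1.01). At shares of 4.76 to 7.69%, near the 5.97% of all genes, 1 gene was higher in each of the ERK output list (Spred3, 1.85, of 17, median −0.62 with 12 negative values), the circadian list (Nfil3, 1.63, of 18, median 0.22), the iron list (the exporter Slc40a1, 1.34, of 21, median 0.17) and the ESCRT-III list (Chmp7, 1.58, of 13, median −0.15). The KEOPS and t6A list had 1 higher of 7, the KEOPS subunit Tprkb, at 46.9, 50.3 and 53.9 CPM against 109, 0 and 113 CPM (1.07 ± 0.17, adjusted p = 0.00453).

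Several core lists had no call in edgeR without the shallow library, at a background of 5.97%. These were cytoplasmic ribosomal proteins (0 of 82, median −0.25), nuclear genes of oxidative phosphorylation (0 of 44, −0.23), proteasome subunits (0 of 31, −0.12), MYC and nucleolar ribosome biogenesis genes (0 of 31, −0.33), RNA polymerase III and tRNA processing genes (0 of 26, −0.26), autophagy genes (0 of 21), stress granule proteins (0 of 20, −0.48) and the RNA interference machinery (0 of 12, −0.16). A list with no call can still lean to 1 side. In the stress granule list 17 values were negative and 3 positive, and in the ribosomal list 59 and 23. Over all genes tested 6351 values were negative and 5993 positive. Of the 12344 genes, 3942 had an unadjusted p under 0.05 in edgeR, and DESeq2 called 2015 and voom with quality weights 899. Ago2, the slicer of RNA interference, was at 589, 551 and 520 CPM in shOSGEP#1 and at 473, 234 and 450 CPM in shOSGEP#2, and Dicer1 at 175, 152 and 219 against 162, 114 and 163 CPM. Neither Ago2 nor Dicer1 passed the test. The 13 mitochondrially encoded genes had 0 calls and a median of −3.11, and 2 libraries stood apart in them. The list median of log2(CPM + 0.5) lay 2.88 above the shOSGEP#1 mean in shOSGEP#1 replicate 3 and 2.04 above it in the shallow library, against −2.34 to −1.21 in the other 4, and these genes took 2.96% of counts in shOSGEP#1 replicate 3 and 0.211 to 0.633% in the other 5.

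**Figure D3:**
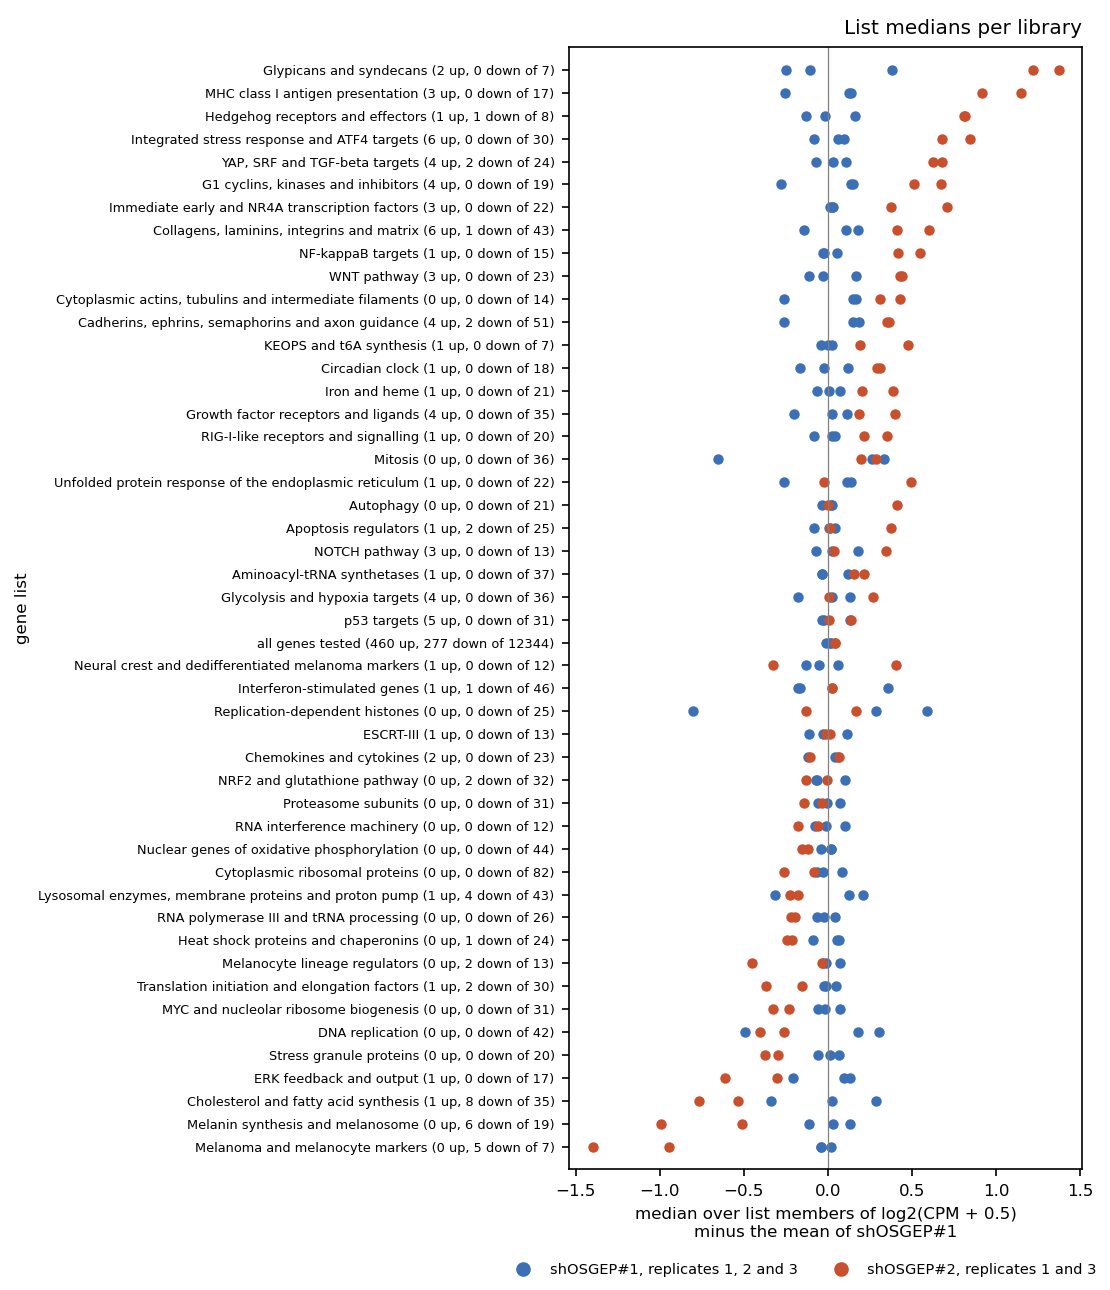
For each list with at least 7 tested genes except the mitochondrially encoded genes, the median over members of log2(CPM + 0.5) less the shOSGEP#1 mean, 1 point per deep library (blue, shOSGEP#1; red, shOSGEP#2), with the calls without the shallow library in each label. Red points lie farthest above 0 for the glypicans and syndecans (1.22 and 1.37). For the MHC class I, hedgehog and ATF4 lists both red points lie at or above 0.68, and for the melanin, melanoma marker and cholesterol lists at or below −0.51, while the blue points of these 7 lists lie between −0.34 and 0.38; in other lists, such as the histones, blue points run from −0.81 to 0.59.

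Of 53 lists, 51 had tested members, 35 had at least 1 called member and 16 had none. Transcripts of the called genes were longer than those of all genes tested: a median of 3957 bases over the higher and 3536 over the lower genes, beside 2999. The median GC content was 51.7% for the higher and 49.2% for the lower genes, beside 50.6%, and the median share of codons beginning with A, the kind that t6A-bearing tRNAs read, was 26.2% and 27.6%, beside 26.9%. Called genes were also more abundant in the median, at 44.2 CPM for the higher and 86.4 CPM for the lower genes against 35.7 CPM over all genes tested, and the part of length and abundance in the calls was not tested.

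Adding the shallow library takes the calls of edgeR from 737 to 0, those of DESeq2 from 2015 to 74 and those of voom with quality weights from 899 to 780, and without it leaving out shOSGEP#2 replicate 1 or 3 takes those of edgeR to 127 or 16. The difference is one between hairpins, and with no further hairpin and no input library, a part of the hairpins' own sequences and a part of residual Osgep in it cannot be told apart.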

How the data were processed

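RNA bound to FLAG-tagged RIG-I was measured in 9 libraries, of which the 6 with shOSGEP#1 or shOSGEP#2 were compared. Whole-number counts per gene were deposited by the authors. The submitters' processing notes name bcl2fastq, Trim Galore, STAR and Salmon. Counts were fitted with edgeR 4.0.16 in R 4.3.3 (TMM scaling, filterByExpr, quasi-likelihood test of shOSGEP#2 against shOSGEP#1, Benjamini–Hochberg adjustment over all genes tested, threshold 0.01), once with 6 libraries and once without shOSGEP#2 replicate 2. Adjusted p-values and log2 fold changes are from these fits and ± gives the SE. CPM are counts per 1000000 of the library total. DESeq2 1.42.0, limma 3.58.1 (voom with sample quality weights), other scalings and filters, shCtr libraries in the fit, a replicate block and leaving out each library were alternatives. The edgeR, DESeq2 and voom fits were tested on simulated data. Tables and figures were made in Python 3.11.15 with pandas 2.3.3, numpy 2.4.6, scipy 1.17.1 and matplotlib 3.10.9.

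The members and the 53 gene lists (1399 entries) were chosen with earlier results of these data known, so no list count is independent support of a direction. Genes were named by rule: Osgep and Ddx58; among called genes with groups apart and a mean of at least 5 CPM over the 5 libraries, the 10 largest log2 fold changes in each direction; and up to 4 called members of each list by smallest p. This gave 102 genes. Identifiers were matched to GENCODE M21 (GRCm38), which paired 22237 of 22396 with a name, while the counts were made on GRCm39, so no coordinates are given. Transcript features come from the same annotation.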

Additional observations from a re-analysis of the deposited data

How the results depend on the processing

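Without the shallow library, the 737 calls of edgeR became 2015 with DESeq2, 1443 with no filter, 1375 with the shCtr libraries in the fit, 1928 at an adjusted p under 0.05, and 16 to 427 when 1 library was left out. They stayed within 1.5 times with RLE (752), library totals (780), at least 10 counts in every library (842) and voom with quality weights (899). Of the 737, 736 were among the calls of DESeq2. The higher share of calls was 62.4% with edgeR, 53.4% with DESeq2 and 68.7% on library totals.

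With all 6 libraries, the 0 calls of edgeR (555 genes at an unadjusted p under 0.05) became 74 with DESeq2, 780 with voom and quality weights and 4 with at least 10 counts in every library (3898 genes tested), and the range over left-out libraries was 0 to 737, the highest without shOSGEP#2 replicate 2. RLE, library totals, no filter, the shCtr libraries in the fit and an adjusted p under 0.05 gave 0 calls. The median over all genes moved from −0.38 to −0.23 on library totals, −0.05 with voom, 0.05 over the genes with at least 10 counts in every library and −0.96 with the replicate block.

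The replicate number as a block gave 1684 calls without the shallow library (733 of the 737 among them, 53.2% of them higher) and 0 with it (148 genes at an unadjusted p under 0.05). Whether equal numbers mark a shared experiment cannot be decided from these values. After centring within each hairpin, pairs with equal numbers correlated at 0.01, −0.01 and 0.04 over 6 libraries, and at −0.00353 and 0.107 over 5. Without the shallow library, centring makes shOSGEP#2 replicates 1 and 3 mirror images of each other. Against shOSGEP#1 replicate 2, for example, they correlated at 0.154 and −0.154. With 6 libraries, the shallow library enters the centre of every shOSGEP#2 library.

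The sign of Osgep without the shallow library turned when 1 library was left out (0.02 without shOSGEP#1 replicate 1, 0.33 without shOSGEP#2 replicate 1), and the range over left-out libraries was −4.74 to 0.33. It was −2.23 with voom and quality weights and −2.05 with the replicate block, and with 6 libraries Osgep was at −1.78 and −2.65 under the same alternatives. With 6 libraries the log2 fold change of Ddx58 of 0.03 turned to −0.043 with DESeq2, −0.0399 with RLE, −1.03 with the replicate block, was 0.75 with voom and quality weights, and ran from −0.40 to 0.61 over left-out libraries. The causes were not tested.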

Other observations

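A pair of abundant mRNAs, named here after their values were seen, varied between libraries of the same hairpin. Lars2, which encodes the mitochondrial leucyl-tRNA synthetase, was at 120, 1337 and 706 CPM in shOSGEP#1 and at 10960, 67920 and 2637 CPM in shOSGEP#2. The groups did not overlap, but the shOSGEP#2 values spread widely and edgeR gave a log2 fold change of 3.18 ± 0.84 without the shallow library (adjusted p = 0.0347) and 4.67 ± 1.35 with it (adjusted p = 0.855). Lars2 may share reads with sequence like ribosomal RNA, so its counts are uncertain. Ccnb1ip1, a ubiquitin ligase that acts in meiosis, was at 5682, 1178 and 9746 CPM against 914, 33800 and 14510 CPM, with no order between the hairpins.

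A pair of genes outside the naming rule, chosen after their values were seen, had large values and counts in the shallow library. Olig3, a transcription factor of the developing nervous system with a mean under 5 CPM over the 5 deep libraries, was at 0.203, 0 and 0 CPM in shOSGEP#1 and at 7.30, 190 and 6.97 CPM in shOSGEP#2 (adjusted p = 0.00959 without the shallow library). Lifr, the receptor of leukaemia inhibitory factor, whose log2 fold change came just after the 10 largest, was at 1.36, 3.64 and 2.21 CPM against 42.6, 82.6 and 43.5 CPM (log2 fold change 4.08 ± 0.39). Among genes often used as references, Actb was at 8126, 8213 and 6366 CPM against 8644, 2487 and 9091 CPM, and Gapdh at 5450, 5226 and 2775 against 6194, 1736 and 4882 CPM, with the shallow library lowest in both.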
